A study of Homo sapiens with 8 samples.

Results

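The windows described here are the 1400 consecutive 10 kb windows of human chromosome 7 (build hg38) between chr7:52000001-66000000, which span the centromere and its flanks on both arms. They are 1400 of the 303091 full windows of chromosomes 1 to 22 and X. The stretch was chosen by its position and because earlier results of these data described its H3K9me3 coverage in both conditions, so every H3K9me3 value below is a description and carries no test. The cells were SUM159, a triple-negative breast cancer line of mesenchymal character, transduced with the lentiviral vector pLV-KRAB, which supplies a nuclease-dead Cas9 fused to the KRAB repressor domain. For the All gRNA cells this vector also carried the guide RNAs, 4 in all, against the ZEB1 promoter. The No gRNA cells, labelled empty vector control, received it without a targeting guide, so the controls carried the repressor too. Native chromatin immunoprecipitation, in which nucleosomes released by nuclease are pulled down without cross-linking, was done with an antibody to trimethylated lysine 9 (H3K9me3) or lysine 4 (H3K4me3) of histone H3. Each mark had 2 biological replicates per condition, which gave 8 libraries and 8 lists of broad peaks. The sources used here do not say whether replicates came from separate transductions.

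Human centromeres are built on alpha satellite, a short repeat in head-to-tail arrays, and some of its units hold the CENP-B box, the motif bound by the centromere protein CENP-B. The flanking pericentromere is usually packed as constitutive heterochromatin, in which H3K9me3 is written by histone methyltransferases and read by HP1 proteins. Clusters of zinc finger genes of the KRAB family are another known site of H3K9me3, laid down over their bodies by a complex of TRIM28 (KAP1) and SETDB1. The same complex is recruited by the KRAB domain of the vector. H3K4me3 marks the starts of active or poised genes.

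The windows were sorted by sequence and annotation. A window counted as satellite where at least 50% of its bases matched the base lying the length of 1 alpha-satellite unit further on, which held for 337 windows (24.1%). A further 142 windows lay within 200 kb of such a window and were called satellite edge. Bodies of coding zinc finger genes overlapped 66 of the remaining windows and bodies of other coding genes overlapped 86. There were 483 gene-poor windows, more than 100 kb from any coding gene, 256 other intergenic windows, and 30 windows in which most bases of the assembly are unknown.

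The main satellite array filled the 266 windows of chr7:58170001-60830000 and held 7282 of the 7491 CENP-B boxes of either strand counted between both ends of the stretch. Over its first 400000 bases the best self-match was at a lag of 1022 bases, where 76.7% of bases agreed, against 53.2% at the length of a single unit. The sequences that follow set satellite units of the array and the long arm beside a run of mostly unique bases. They were read from hg38 on the forward strand, and capitals mark the letters of a CENP-B box. The first pair are neighbouring units at the centre of the array, at chr7:59500318-59500488 and chr7:59500489-59500659. The next is the centre of the satellite window that had more H3K9me3 in All gRNA, at chr7:61644916-61645086, and the last is the centre of the longest run of such windows, at chr7:54014941-54015060.
array unit with a box: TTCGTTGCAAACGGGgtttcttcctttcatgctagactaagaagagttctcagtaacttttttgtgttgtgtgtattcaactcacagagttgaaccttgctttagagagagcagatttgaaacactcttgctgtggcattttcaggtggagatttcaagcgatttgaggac
next array unit: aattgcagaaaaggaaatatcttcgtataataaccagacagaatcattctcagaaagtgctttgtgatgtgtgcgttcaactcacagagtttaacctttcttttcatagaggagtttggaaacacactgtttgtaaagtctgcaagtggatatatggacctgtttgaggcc
long-arm satellite window: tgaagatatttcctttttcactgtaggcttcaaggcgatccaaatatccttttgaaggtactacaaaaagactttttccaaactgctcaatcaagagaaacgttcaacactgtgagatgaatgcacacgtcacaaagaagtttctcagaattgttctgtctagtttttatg
gene-poor run: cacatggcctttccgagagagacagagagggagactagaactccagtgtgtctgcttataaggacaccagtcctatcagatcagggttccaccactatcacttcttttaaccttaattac
The neighbouring array units agreed at 62.0% of their bases, and the first unit was repeated letter for letter 1022 bases further on. Only 1.31% of the 31-base words of the main array occurred once in the genome. In gene-poor windows the mean was 64.4%, and in windows of zinc finger genes it was 74.9%. How reads with several possible positions were handled is not given in the sources used here, so coverage inside the array belongs to the repeat family and not to a single place in it.

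The whole lists set the scale. For H3K9me3 they held 321975 to 410355 peaks, and for H3K4me3 395287 to 506683. Every list reached down to a p-value of 0.1, and lists of peaks hold no read counts. The depth behind each value is therefore unknown, and no interval for counting error was computed. Within 1 kb of the start of ZEB1, the targeted gene, H3K9me3 covered 65.5% and 69.2% with guides and 0% without guides in both replicates. H3K4me3 there was at 0% in both libraries labelled replicate 1 and at 100% in both labelled replicate 2, whatever their labelled condition. The file names give the other condition to 2 H3K4me3 libraries, those labelled All gRNA replicate 2 and No gRNA replicate 1, and the labels were kept. The start of VIM, a mesenchymal marker, was covered at 100% by H3K4me3 in all 4 libraries, and that of ESR1, the oestrogen receptor gene, was at 0% in all 4.

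H3K9me3 covered most of the stretch in every library and more of it in both All gRNA libraries than in either No gRNA library. The mean covered share (the percentage of a window's bases that lay inside any deposited peak) was 76.0% and 76.3% in All gRNA replicates 1 and 2 and 72.0% and 71.7% in No gRNA replicates 1 and 2. The means were 76.2% ± 0.252 and 71.8% ± 0.209 (SD, n = 2 each), a difference of 4.35 points. On the rest of chromosome 7, over 14534 windows, the shares were 20.9%, 21.8%, 20.4% and 20.6% in the same order, a difference of 0.886 points. With only peaks at a q-value of at most 0.05 the stretch was covered at 61.1%, 55.4%, 40.1% and 57.6%, so the conditions overlapped and No gRNA replicate 1 stood lowest. The stretch held, with all peaks, 3.00 to 3.11 times the mean share of the genome in each library. Between 532 and 658 windows per library were covered at 95% or more, 444 of them in all 4 libraries. No peak of any H3K9me3 list touched 27 windows, of which 25 were assembly gaps.

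**Figure D1:**
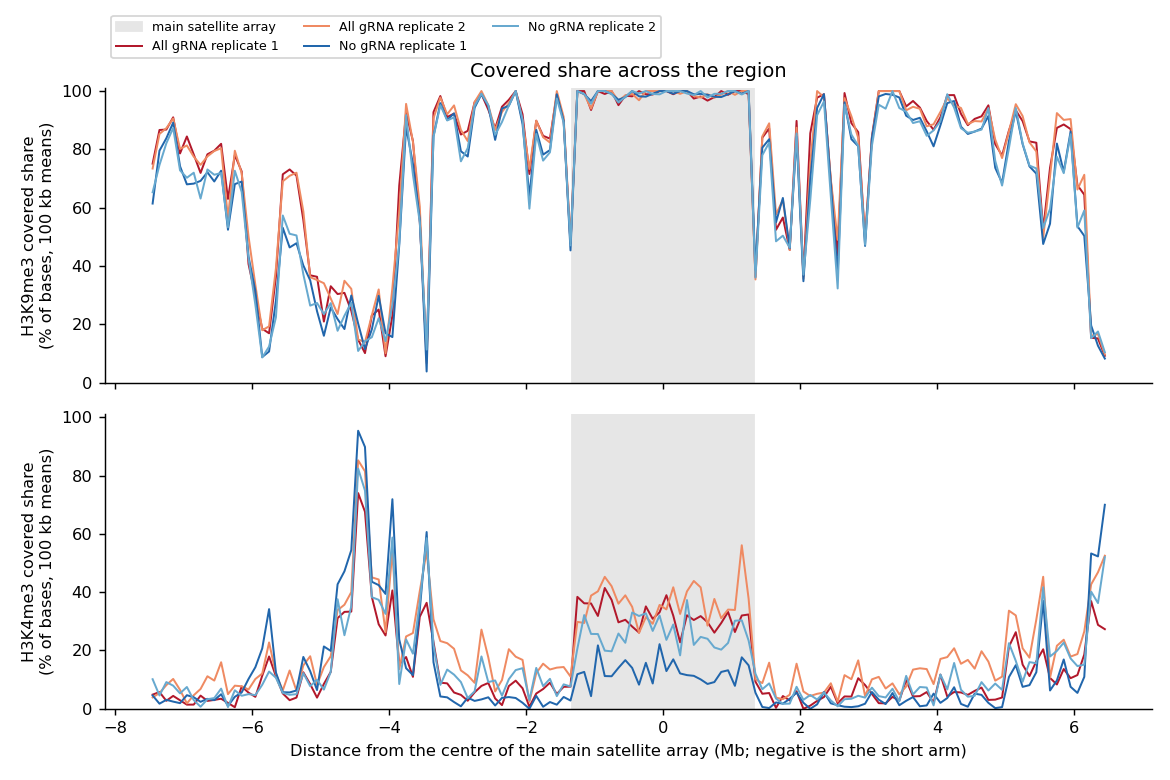
Mean covered share (%) of H3K9me3 (upper panel) and H3K4me3 (lower panel) in 100 kb steps against the distance in Mb from the centre of the main satellite array, with 1 line per library as labelled and the array in grey. H3K9me3 stays near 100% across the array in all 4 libraries and the All gRNA lines run above the No gRNA lines mainly on the flanks, while H3K4me3 peaks over the EGFR interval on the short arm.

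The satellite array itself was nearly filled in every library. Its 266 windows were covered at 98.7%, 98.9%, 98.9% and 99.0% in All gRNA replicates 1 and 2 and No gRNA replicates 1 and 2, so the conditions overlapped. Over all 337 satellite windows the shares were 94.4%, 94.6%, 94.3% and 93.4%. The smaller arrays of the long arm were less evenly covered. The 200 kb of chr7:61100001-61300000 stood at 54.5%, 60.2%, 59.2% and 49.4%, and the 150 kb of chr7:61380001-61530000 at 88.0%, 86.3%, 84.7% and 86.0%. The conditions overlapped in the first of these arrays, and in the other both All gRNA libraries were above both No gRNA libraries. On the short arm, the 150 kb of chr7:57880001-58030000 was covered at 97.8%, 98.6%, 98.0% and 96.3%, although 54.6% of its 31-base words were unique.

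Satellites also held the peaks with the lowest q-values. With only peaks at a q-value of at most 0.001, the satellite windows kept 76.7%, 77.9%, 71.0% and 78.2% of their bases, again in the order All gRNA replicates 1 and 2 and No gRNA replicates 1 and 2. Windows of zinc finger genes kept 2.51%, 0.596%, 0.0595% and 2.55%, and gene-poor windows 0.459%, 3.73%, 0.156% and 10.6%. The rest of chromosome 7 kept at most 0.0478%. At this threshold the mean of the whole stretch was 20.0%, 20.7%, 17.4% and 23.8%, and the libraries of the conditions overlapped. The median fold enrichment of peaks over satellite windows lay between 1.76 and 1.94, below the 2.03 to 2.11 of peaks over zinc finger windows. The longest H3K9me3 peak lay inside the main array in All gRNA replicate 2 (578581 bases) and in No gRNA replicates 1 and 2 (322981 and 383832 bases). In All gRNA replicate 1 it lay on the long-arm side, at chr7:62570803-63006439 (435637 bases).

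**Figure D2:**
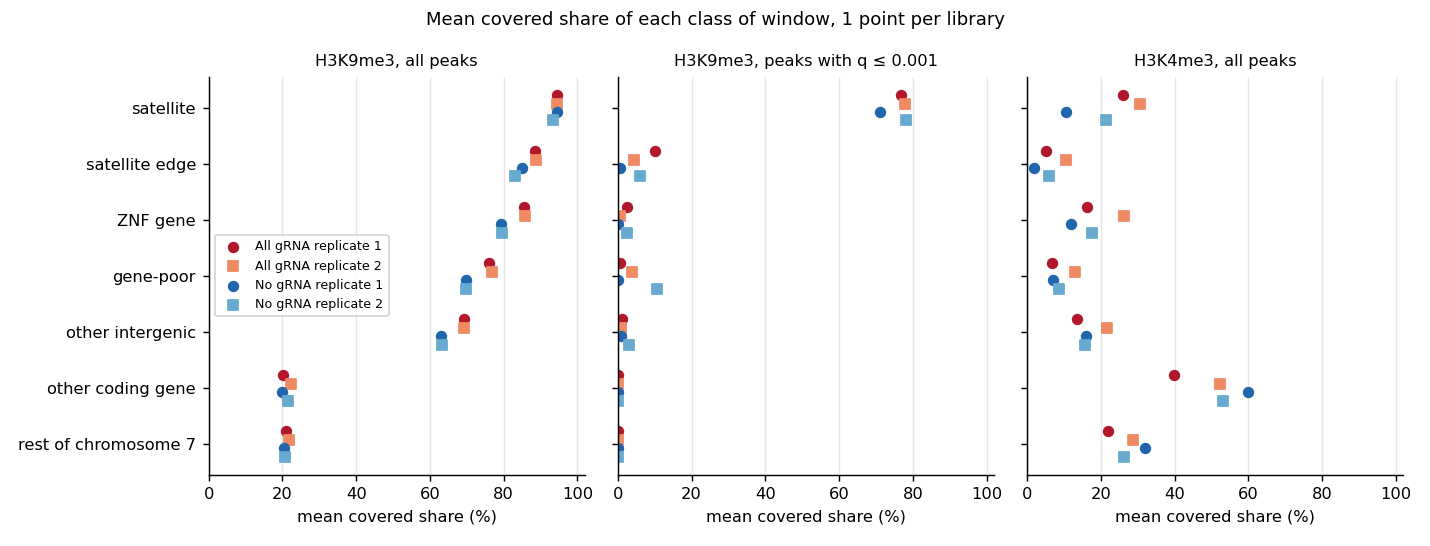
Mean covered share (%) of each class of window, with 1 point per library as labelled, for H3K9me3 with all peaks (left), H3K9me3 with peaks at a q-value of at most 0.001 (middle) and H3K4me3 with all peaks (right). With all H3K9me3 peaks both All gRNA points lie right of both No gRNA points at satellite edges, zinc finger genes, gene-poor and other intergenic windows; at the stricter q-value only satellite windows stay above 70%.

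Outside the satellites, 4 classes of window had more H3K9me3 in both All gRNA libraries. With all peaks the array was so nearly full that this measure could hardly show a difference inside it. With only peaks at a q-value of at most 0.05, satellite windows were covered at 88.3% and 88.4% with guides, against 81.5% and 86.0% without, a difference of 4.57 points without overlap. No gRNA replicate 1, the lowest library of the whole stretch at this threshold, was also the lowest here. At a q-value of at most 0.01 the satellite windows stood at 83.8% and 79.3% against 79.0% and 80.7%. The conditions overlapped at that threshold, and again at 0.001. The values that follow are again for all peaks. Satellite edge windows were covered at 88.6% and 88.9% with guides (All gRNA), against 84.9% and 83.1% without (No gRNA). Gene-poor windows were covered at 76.2% and 76.7% against 69.9% and 69.8%, a difference of 6.59 points. Other intergenic windows stood at 69.3% and 69.1% against 63.0% and 63.2%, a difference of 6.14 points. Windows of zinc finger genes were covered at 85.6% and 85.7% against 79.2% and 79.5%, a difference of 6.26 points. In each of these 4 classes both All gRNA libraries were above both No gRNA libraries. At a q-value of at most 0.05 the conditions overlapped in satellite edge, gene-poor and zinc finger windows, and other intergenic windows stood at 48.8% and 47.6% against 27.4% and 45.3%. Windows of coding genes other than zinc finger genes were covered at only 20.2%, 22.3%, 19.9% and 21.7%, and the conditions overlapped.

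On the long arm the first 500 kb beyond the last satellite window was almost full. From 200 to 500 kb out, H3K9me3 covered 99.4% and 98.9% in All gRNA, against 97.1% for each No gRNA library. Coverage fell to 28.9%, 30.4%, 24.3% and 26.0% beyond 3000 kb, where VKORC1L1 and GUSB lie. Only 43 windows were left there, because the stretch ends short of 4000 kb on this arm. The short arm was less regular. Its first 100 kb stood at 85.8%, 84.4%, 81.7% and 82.0%, and 500 to 1000 kb out coverage was higher, at 94.5%, 94.1%, 93.4% and 92.9%. The largest difference by distance was on the short arm at 3000 to 4000 kb, with 46.7% and 47.0% with guides, against 33.5% and 34.5% without (12.9 points).

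Cut into 28 intervals of 500 kb, the stretch had both All gRNA libraries above both No gRNA libraries in 22 and below them in 1. Of the 6050 full intervals of the genome, 33.1% were above and 32.5% below in this sense. The interval with the largest difference was chr7:54000001-54500000, a gene-poor stretch short of VSTM2A, with 54.6% in each All gRNA library, against 38.8% and 38.5% without guides (15.97 points). The interval with the smallest was chr7:60000001-60500000 inside the array, with 98.3%, 98.6%, 98.5% and 99.2% (-0.39 points).

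Single windows were compared by a fixed gap: a window was called higher when the lower All gRNA library exceeded the higher No gRNA library by at least 25 points. By this rule 15 of the 1400 windows (1.07%) were higher in All gRNA, where 0.877% of all windows of the genome were called higher, so their share was close to that background. None was called lower, where the genome had 0.196% called lower, and the nearest was a window of the main array, chr7:58430001-58440000, with 48.0% and 44.2% against 74.3% and 69.2%. Counting every window whose groups did not overlap, 352 (25.1%) were higher and 61 (4.36%) were lower, where the genome had 16.5% and 13.8%. These percentages describe the contrast by which the stretch was known and no test was made on them. Leaving out a library raised the count of 15 to 31 (without All gRNA replicate 1), 43 (without All gRNA replicate 2), 42 (without No gRNA replicate 1) or 38 (without No gRNA replicate 2). A call needs every library to keep the gap, so leaving 1 out could not lower the count. The share of the genome under the relaxed rule is not given here. Of the 15 windows, 8 were gene-poor, 5 other intergenic, 1 satellite and 1 in a zinc finger gene.

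The only run of 3 called windows was chr7:54000001-54030000, whose central bases are printed above. It was covered at 82.4% and 81.8% with guides, against 39.0% and 39.8% without. No annotated gene overlapped it, and the nearest coding gene was VSTM2A, 512 kb away. Its 3 windows had 99.6%, 90.0% and 80.3% unique 31-base words. H3K4me3 covered 0%, 12.2%, 9.20% and 6.98% of the run in the libraries labelled All gRNA replicates 1 and 2 and No gRNA replicates 1 and 2. A single window nearer to the centromere, chr7:54110001-54120000, had the widest gap of all, with 100% and 91.5% against 31.3% and 45.5%.

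The remaining calls were single windows. The satellite window chr7:61640001-61650000, with 2.75% unique words and no CENP-B box, was full for each All gRNA library and stood at 71.7% and 64.1% in No gRNA. The window chr7:64830001-64840000 at the end of ZNF138 was full with guides and stood at 67.7% and 67.2% in No gRNA. The window chr7:65350001-65360000, 13.8 kb before ZNF92, was full with guides and stood at 58.1% and 62.4% in No gRNA. Another call, chr7:54810001-54820000, overlapped the long noncoding gene SEC61G-DT and had 49.9% and 45.4% against 11.1% and 15.3%. It was the only called window in which H3K4me3 covered more than 30% in every library, with 51.8%, 73.6%, 48.8% and 34.1%. Near the threshold, the called windows with the smallest gaps had gaps of 25.02, 25.23 and 27.46 points, and the closest windows left out had gaps of 24.51, 24.10 and 23.96 points.

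**Figure D3:**
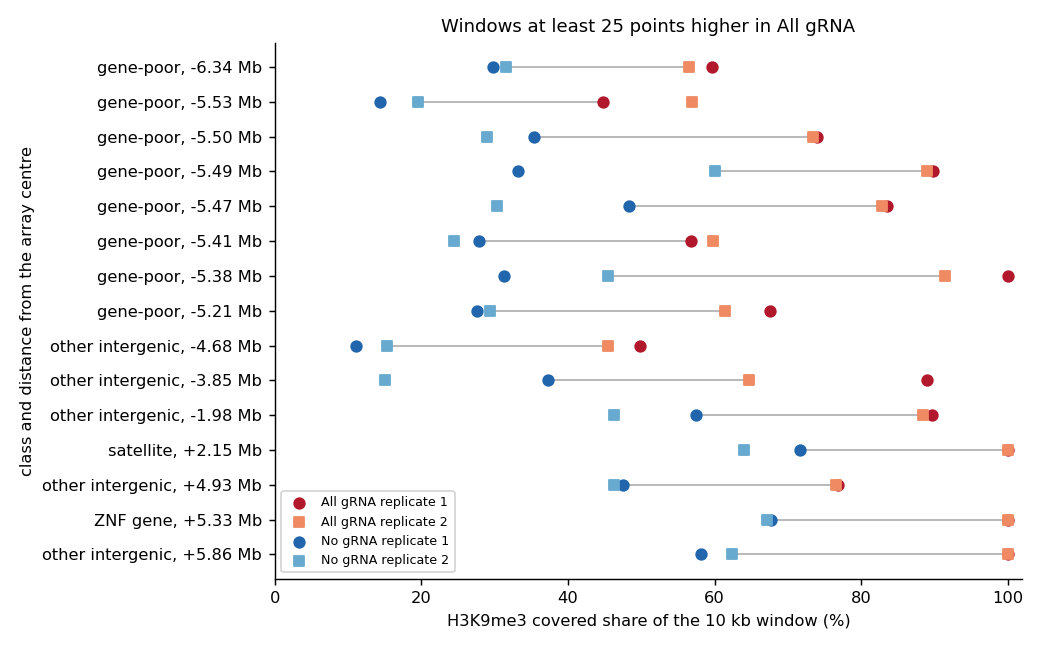
H3K9me3 covered share (%) in each library of the 15 windows called higher in All gRNA, labelled by class and by distance in Mb from the centre of the main satellite array (negative on the short arm). Grey lines join the higher No gRNA library to the lower All gRNA library; 8 of the windows are gene-poor and lie between 5 and 7 Mb from the array centre on the short arm.

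The size of the difference varied with the mean covered share of a window. That mean was taken over the 4 H3K9me3 libraries of both conditions, so it is no baseline, and near 100% it leaves little room for a difference. Among the 576 windows covered at 95% or more on average, the mean difference was 0.818 points, where the rest of the genome had 0.933 points over 13121 windows. Windows covered at 60 to 80% differed by 9.40 points (n = 182), where the rest of the genome had 9.05 points. At 40 to 60% the difference was 11.24 points (n = 114) and the rest of the genome had 7.50 points. At 20 to 40% the values were 6.90 points (n = 119) and 2.01 points. Under 20% the mean difference was 0.717 points (n = 150) in the stretch, and in the rest of the genome, where 184487 windows fell in this band, it was -1.16 points. Outside the stretch the mean was thus higher in All gRNA in every band from 20% up and lower in the band under 20%.

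**Figure D4:**
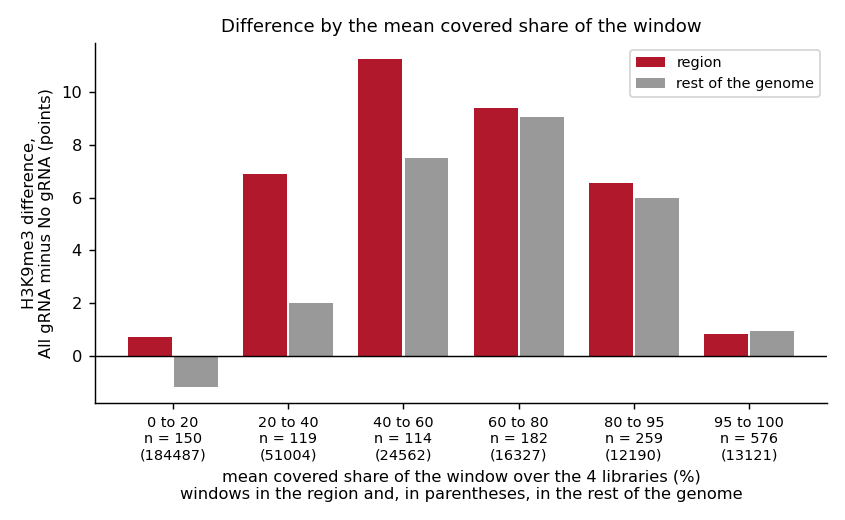
Mean H3K9me3 difference (All gRNA minus No gRNA, in points of covered share) for windows grouped by their mean covered share over the 4 libraries, in the stretch (red) and in the rest of the genome (grey), with the number of windows under each pair of bars. Bars are means over windows and carry no error; both are near 1 point at 95 to 100% and the red bars exceed the grey ones most between 20 and 60%, while the grey bar is below 0 under 20%.

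Zinc finger genes were the gene group with the most H3K9me3. The stretch held the start of 15 coding zinc finger genes, counting ERV3-1, an endogenous retroviral envelope gene that overlaps ZNF117, and of 17 other coding genes. In all 4 libraries every one of the 15 bodies was covered by H3K9me3 over at least 50% of its length. The mean body coverage was 87.7% and 86.2% with guides, against 80.2% and 81.1% without. For the 15 other coding genes of the short arm it was 30.1%, 27.2%, 28.3% and 28.6%. Both All gRNA libraries were above both No gRNA libraries in 8 of the 15 zinc finger genes and below in 0, with a median difference of 6.83 points, against 2 and 1 of 15 and a median of 0 among the other genes of the short arm. Of all 19368 coding genes of the genome, 10.8% were above and 24.4% below without overlap, with a median difference of -0.52 points. Most of these genes hold less H3K9me3 than the 15. Of 1599 coding genes outside the stretch with a mean body coverage of 50% or more, 642 (40.2%) were above and 73 below. Their median difference was 4.18 points, so a higher share with guides was not particular to the zinc finger genes of the stretch. Of 501 other coding genes whose symbol begins with ZNF, outside the stretch, 195 (38.9%) were above and 58 below, with a median of 2.03 points.

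ZNF92, the zinc finger gene farthest out on the long arm (chr7:65373799-65401136), had the largest difference. H3K9me3 covered 78.8% and 78.7% of its body with guides, against 58.0% and 60.5% without (19.5 points). ZNF138 (chr7:64794388-64833681) followed with 78.6% and 77.6% against 65.6% and 61.3% (14.6 points). Peaks at a q-value of at most 0.05 covered 0% of ZNF138 in every library and 17.9%, 15.6%, 11.7% and 25.8% of ZNF92, so both differences were made by peaks with higher q-values. Bodies of ZNF736 differed by 9.19 points and those of ZNF117 by 8.99 points, in both cases without overlap. At the other end, ZNF479 on the short arm was covered at 93.5%, 93.5%, 96.0% and 90.2%, and ZNF716 beside it at 94.3%, 85.5%, 91.8% and 91.4%, so that the conditions overlapped in both.

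On average over the 15 genes, H3K9me3 thinned towards the end of the body. Cut into 4 equal parts along the direction of transcription, the 15 bodies were covered on average at 92.7%, 91.3%, 85.7% and 88.4% in the second part (All gRNA replicates 1 and 2, then No gRNA replicates 1 and 2) and at 79.5%, 74.2%, 71.0% and 69.5% in the last. By these means the last part was the least covered in every library, but this did not hold for each gene. ZNF713 had 50.7%, 69.5%, 65.3% and 50.6% in its first part and 91.8%, 100%, 100% and 100% in its last. ERV3-1 was full in its last part in all 4 libraries.

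The starts of the zinc finger genes fell into groups that the bodies did not. Within 1 kb of the start, 7 genes (ZNF713, ZNF680, ZNF107, ZNF138, ZNF117, ERV3-1 and ZNF92) were covered by H3K4me3 over at least 50% in all 4 libraries, a division made after the values were seen. ZNF117 and ERV3-1 start close together and share most of this window. The other 8 genes (ZNF479, ZNF716, ZNF722, ZNF727, ZNF735, ZNF679, ZNF736 and ZNF273) had H3K9me3 over 95.3% to 100% of the same 2 kb in every library. Among the 7, H3K9me3 at the start averaged 47.9%, 60.4%, 47.4% and 60.3%, and ZNF713 had 0%, 0%, 10.5% and 0%. Bodies of these 7 genes were still covered at 58.0% or more, so with all peaks both marks were found in the same genes. With peaks at a q-value of at most 0.05, only ZNF117 and ERV3-1 kept H3K4me3 at the start in all 4 libraries. ZNF107 then had 0% in No gRNA replicate 1 as labelled. ZNF713, ZNF680, ZNF138 and ZNF92 kept it only in No gRNA replicate 2.

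A gene of each kind is shown by the 250 bases before its start, from RefSeq (GRCh38.p14), with capitals marking each CG pair. ZNF92 lies on the forward strand with its window at chr7:65373605-65373854, and ZNF727 on the forward strand with its window at chr7:64045184-64045433.
ZNF92: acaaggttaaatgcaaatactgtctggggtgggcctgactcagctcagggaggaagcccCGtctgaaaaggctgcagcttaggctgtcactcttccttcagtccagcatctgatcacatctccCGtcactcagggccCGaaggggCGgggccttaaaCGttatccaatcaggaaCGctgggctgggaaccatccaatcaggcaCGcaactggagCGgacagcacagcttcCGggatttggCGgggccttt
ZNF727: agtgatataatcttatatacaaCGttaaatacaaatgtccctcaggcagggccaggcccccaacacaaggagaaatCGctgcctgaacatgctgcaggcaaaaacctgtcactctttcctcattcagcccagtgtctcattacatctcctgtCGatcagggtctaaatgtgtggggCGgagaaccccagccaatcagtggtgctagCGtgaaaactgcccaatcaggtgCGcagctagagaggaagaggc
The ZNF92 window had 10 CG pairs and was covered at 100% by H3K4me3 in all 4 libraries. H3K9me3 covered 0% of it with guides in both replicates and 100% and 52.8% without guides, the opposite order to the gene's body. The ZNF727 window had 6 CG pairs, was covered at 100% by H3K9me3 in all 4 libraries, and had H3K4me3 (65.2%) only in All gRNA replicate 2 as labelled. The median count was 10 over the 7 genes (1 to 22) and 6 over the 8 (0 to 21). For ZNF117 (1 CG pair), ZNF273 (21) and ZNF736 (6) the RefSeq start lies kilobases from the start used for the marks. Their counts therefore do not describe the starts that were grouped. Among the other genes the counts ran from 7 to 22 and from 0 to 8. For 9 promoters of other coding genes with H3K4me3 in all 4 libraries, matched by symbol, the median was 21. Among these 9, VOPP1 (4 CG pairs) has the same mismatch of starts.

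Among the other genes of the short arm, EGFR (chr7:55019017-55211628), the gene of the epidermal growth factor receptor, marked the interval with the most H3K4me3 with all peaks. H3K9me3 covered 8.97% and 11.4% of its body with guides, against 12.3% and 12.0% without, the only body of the 15 with both All gRNA values below both No gRNA values. With all peaks H3K4me3 covered 73.8%, 85.1%, 91.7% and 84.1% of the body. It covered 100% of the 2 kb around the start in all 4 libraries, also with peaks at a q-value of at most 0.05. At that threshold the body kept only 4.36%, 4.44%, 61.8% and 33.6%, in the order of the labels used above. The longest H3K4me3 peak of the stretch lay inside or across EGFR in each library, at 45287, 34310, 89263 and 66944 bases, with a fold enrichment of 2.28 to 2.91. The q-values of these peaks were 0.105, 0.251, 0.0214 and 0.0340 in the same order. CCT6A, which encodes a chaperonin subunit, had no H3K9me3 in any library and H3K4me3 over 90.8% or more of its body. In contrast POM121L12 was covered at 100% by H3K9me3 in all 4 libraries and NUPR2 at 90.0% or more. SEPTIN14, a septin gene that lies beside ZNF713, stood at 90.8% and 84.3% with guides, against 77.1% and 78.1% without. No coding gene outside the zinc finger group overlapped a window called for H3K9me3.

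The order of the conditions for H3K4me3 over the whole stretch changed with the threshold and rested on labels that ZEB1 and the file names go against in 2 libraries. The mean covered share was 14.8% and 21.3% under the All gRNA label, against 12.3% and 15.7% under the No gRNA label, a difference of 4.04 points (exact two-sided permutation test, p = 0.67, n = 2 each; the smallest p that 6 ways of labelling allow is 0.33). Without All gRNA replicate 2 the difference was 0.762 points. Without both libraries in doubt, All gRNA replicate 2 and No gRNA replicate 1, a single library was left on each side and the difference turned to -0.94 points. Grouped as the file names have it, the shares would be 14.8% and 12.3% with guides against 21.3% and 15.7% without, again the other order. With peaks at a q-value of at most 0.05 the stretch was covered at 0.542% and 0.347% under the All gRNA label, against 1.03% and 1.56%, so the order turned without overlap. At equal covered length, with each list cut by q-value to the length of the shortest, it was 14.8% and 14.7% against 7.13% and 11.19%. With all peaks the share was 0.401 to 0.779 times that of the genome. Other coding genes held most of it per window, with 39.8%, 52.2%, 59.8% and 53.05%. Satellite windows had 26.0%, 30.6%, 10.6% and 21.4%, but with peaks at a q-value of at most 0.05 none kept more than 0.168%. Satellite H3K4me3 coverage was thus made of peaks with high q-values, as was most H3K4me3 coverage of the whole stretch. By the same gap of 25 points, 17 windows (1.21%) were higher in the libraries labelled All gRNA, where the genome had 0.207%, and 16 of them were satellite windows. The 17th held the start of ZNF107, with 81.6% and 75.5% against 37.8% and 48.9%. There were 5 lower windows (0.357%), where the genome had 0.95%, all over other coding genes. Grouped as the file names have it, the conditions would overlap in every one of these 17 and 5 windows. Each group would then hold a library from either side of the gap, so these calls rest on the labels. With only the libraries not in doubt, All gRNA replicate 1 against No gRNA replicate 2, the same gap gave 63 higher windows (4.50%), 44 of them satellite, where the genome had 3.53%, and 58 lower windows (4.14%), where the genome had 10.8%.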

How the data were processed

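The authors made native ChIP-seq libraries and called broad peaks in each library with MACS2 on hg38. The study's methods name fastp, bowtie2, removal of duplicates and of an exclusion list, and MACS2. The submitters' processing notes name bcl2fastq 2.17, Trimmomatic 0.33, Bowtie 1.1.2 and MACS2 2.1.0 and so differ from them. The study's methods describe an input sample, subtracted for browser tracks; whether it served as the control in peak calling is not given in the sources used here. Each deposited list gives a score, a fold enrichment (ratio) and −log10 p and −log10 q per peak, as the authors' caller wrote them. The authors' q-values were used only as thresholds and the scores not at all.

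Overlapping peaks of a library were merged and the percentage of bases covered was computed in full 10 kb windows (python 3.11.15, numpy 2.4.6, pandas 2.3.3). GENCODE 44 gave genes, and the hg38 sequence gave satellite classes, CENP-B boxes and unique 31-base words. The windows, classes and gene lists were chosen with earlier results of these data known. The named genes were every zinc finger gene, EGFR, and genes overlapping or nearest to called windows; POM121L12, NUPR2, SEPTIN14, CCT6A and the CG counts were added after their values were seen. The mean H3K4me3 share was tested with an exact permutation test (scipy 1.17.1). The share and gap computations were tested on simulated data. Alternatives were peaks at q of at most 0.05, 0.01 and 0.001, equal covered length, centring on the genome mean, leaving out each library, leaving out both H3K4me3 libraries in doubt (chosen after seeing the data), pairing by replicate number, and other gaps, window sizes and class limits. No gene expression is in these lists, so the cell line was checked only at VIM and ESR1. The depth of each library is unknown.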

Additional observations from a re-analysis of the deposited data

How the results depend on the processing

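The 7 results were recomputed under the alternatives that apply to each, 86 values in all: thresholds, equal length, centring, left-out libraries and the replicate block for every result, and gaps, window sizes and class limits only for the counts or classes they define. Of these, 43 counted as unchanged, 37 moved further and 6 turned direction. The 43 include the differences under the replicate block, which by arithmetic could not change. Unchanged meant less than 1 SD for an H3K9me3 difference and at most 1.5 times for a count. The H3K4me3 difference counted as unchanged whenever it kept its sign, whatever its size, as at 8.06 points after centring. The cause was not tested. With q of at most 0.05 the H3K9me3 difference was 9.41 points over the stretch and 13.4 in zinc finger windows. It was 9.03 in satellite and edge windows and 9.69 in gene-poor windows. No gRNA replicate 1, at 40.1% of the stretch against 55.4% to 61.1% in the others, widened these differences, and the conditions overlapped. By the gap rule 43 windows were higher and 3 lower. A call needs both No gRNA libraries on the same side of the gap, so No gRNA replicate 1 alone cannot make these counts. With q of at most 0.01 the same differences were 7.28, 13.6, 5.64 and 9.13 points, with 24 and 1 windows. With q of at most 0.001, an alternative chosen after seeing the data, they were -0.27, 0.25, 3.02 and -3.28 points, with 1 window higher. At equal covered length the stretch differed by 4.01 points. After subtracting each library's genome mean the differences were 3.32, 5.23, 0.79 and 5.56 points.

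The count of 15 higher windows became 0 at a gap of 50 points, 108 at 10 points, 55 in 5 kb windows, 5 in 20 kb windows and 36 for windows that crossed 50% coverage; the count of 0 lower windows became 9 at 10 points, 2 in 5 kb windows and 2 for crossing 50%. Without 1 library the higher count was 31 to 43 and the lower count 1 to 5. Leaving out a library or narrowing the gap could not lower a count. For none of the alternative counts is the share of the genome given here, so they have no background to be read against. Without 1 library the differences ran from 4.17 to 4.53 points over the stretch, 6.10 to 6.42 in zinc finger windows, 1.23 to 2.40 in satellite and edge windows and 6.32 to 6.87 in gene-poor windows. The H3K4me3 difference turned to -0.85, -0.47 and -0.13 points at the 3 q thresholds, and ran from 0.76 to 7.31 points without 1 library; without both libraries in doubt it was -0.94 points.

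Same-numbered libraries did not deviate together (correlation over windows of the stretch -0.0067 for H3K9me3 and -0.050 for H3K4me3). No pairing by number was thus seen over these windows. Whether same-numbered libraries were prepared together cannot be told from this. With the replicate number as a block the higher count was 20, the lower count 1 and the H3K9me3 difference 4.35 points. Zinc finger windows (6.26 points), satellite and edge windows (1.82), gene-poor windows (6.59) and H3K4me3 (4.04) had the same values as without it. Each replicate number holds 1 library per condition, so the mean of the paired differences equals the plain difference by arithmetic. The block could therefore change the counts but none of these differences, and their sameness says nothing about how stable they are. What depth limits cannot be said, since the lists give no counts.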
